A study of Mus musculus with 25 samples.

Results

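The 10 genes described here encode proteins of the fibrous extracellular matrix and surface receptors of the mesenchymal cells that lay it down. They are Dcn, Bgn, Lum, Ogn, Fmod, Sparc, Fbln1, Fbln2, Pdgfra and Itga8, and they were taken by symbol from the choroid plexus count table, in which all 10 of them are among 19762 genes. RNA was read near the 3′ end of each transcript in 25 libraries, of which 14 held choroid plexus tissue and 11 held sorted brain myeloid cells. Every mouse was of the 5XFAD strain, a transgenic model of Alzheimer's disease that develops amyloid plaques, so no group without the transgenes entered any comparison. The choroid plexus groups were 5 mice given an antibody that blocks the immune checkpoint receptor PD-1, 5 given the IgG control antibody and 4 left untreated, and the question was what the antibody does to the tissue. All sorted libraries came from mice given anti-PD-1, with CD11b+ cells of low CD45 (the microglial gate, 3 libraries marked D7 and 3 marked D14) or of high CD45 (the gate for monocyte-derived macrophages, 3 marked D7 and 2 marked D14). The ages of the mice are not spelled out in the labels, nor is the meaning of D7 and D14 or the number of mice behind a sorted library. In the titles of the tissue samples stand a letter, M or F (7 libraries each), and a number from 6 to 14, neither of which the labels explain.

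The choroid plexus is an epithelial sheet around a vascular stroma, and fibroblasts of that stroma make collagens and the proteins that decorate them. Decorin (Dcn), biglycan (Bgn), lumican (Lum), osteoglycin (Ogn) and fibromodulin (Fmod) are small leucine-rich proteoglycans that bind collagen fibrils and growth factors. SPARC is a collagen-binding glycoprotein that is also made outside the stroma, and the fibulins Fbln1 and Fbln2 are calcium-binding glycoproteins of basement membranes and elastic fibres. PDGF receptor alpha (Pdgfra) marks fibroblasts in many tissues and oligodendrocyte precursors in brain, and integrin alpha 8 (Itga8) pairs with integrin beta 1 to bind nephronectin, fibronectin and related ligands.

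Bgn was the only one of these genes with a called difference within the choroid plexus, and Sparc the only one with enough counts in the sorted cells to be tested, so the promoters of these 2 are shown. Both are from RefSeq on GRCm38.p6, from 250 bases before to 50 bases after the annotated start, 5′ to 3′ on the strand of the gene. The Bgn window is chrX:73483351-73483650 on the plus strand and the Sparc window chr11:55420031-55420330 on the minus strand. Capitals mark GC boxes, GGGCGG on either strand, the only one of the motifs searched that occurs in either window.
Bgn: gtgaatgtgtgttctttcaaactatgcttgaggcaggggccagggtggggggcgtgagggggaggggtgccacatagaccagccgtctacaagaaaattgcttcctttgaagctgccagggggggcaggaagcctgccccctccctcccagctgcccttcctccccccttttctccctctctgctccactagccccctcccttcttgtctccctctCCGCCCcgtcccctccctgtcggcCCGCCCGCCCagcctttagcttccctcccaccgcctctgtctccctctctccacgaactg
Sparc: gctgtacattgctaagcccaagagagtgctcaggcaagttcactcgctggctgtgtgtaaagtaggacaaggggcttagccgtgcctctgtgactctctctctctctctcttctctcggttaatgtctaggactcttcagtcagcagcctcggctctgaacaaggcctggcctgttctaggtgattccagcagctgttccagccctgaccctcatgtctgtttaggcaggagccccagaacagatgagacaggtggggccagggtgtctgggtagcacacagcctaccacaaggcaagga
The Bgn window holds 3 GC boxes close to the start, of which the last pair overlaps, and the Sparc window holds none. A GC box on either strand occurs in 35.7% of the 32851 mouse promoters in the table, so its presence does not set Bgn apart. The TATA box TATAAA, found in 13.6% of them, and the CCAAT box CCAAT, in 37.4%, were not in either window. Among the 8 genes with a promoter in the table, Bgn, Fbln1 and Fbln2 held the letters of a GC box, Ogn of a TATA box and Fmod of a CCAAT box. Another annotated Fbln1 window held 0 GC boxes. The Ogn match lay near the 5′ end of its window, far from the start, and the Fmod match lay after the start. Whether any of these matches acts in the promoter was not tested. Dcn and Lum were not matched.

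The 10 genes together took between 0.0894% and 0.136% of the counts of a choroid plexus library. The epithelial transcript Ttr alone, which encodes the thyroid hormone carrier transthyretin, took 10.3% to 16.6%. Library totals lay between 931461 and 1840072 counts in the choroid plexus and between 343439 and 974777 in the sorted cells. Levels are given as CPM, counts scaled to the size of the library. A count of 0 allows a level of up to 3 counts, which was 1.63 to 3.22 CPM in tissue and 3.08 to 8.74 CPM in sorted cells. These limits cover counting error only. The letters of the titles went with Y-linked transcripts. Ddx3y lay between 85.7 and 158 CPM in the M libraries and between 0.0 and 3.27 in the F libraries, and Eif2s3y was detected in M libraries alone, with 53 counts there and 0 in F. All 12 stromal fibroblast markers, among them Col1a1, Col1a2 and Col3a1, were detected in each choroid plexus group.

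Levels were spread over a wide range, and since a transcript is read near its 3′ end its count does not grow with its length. Sparc was the most abundant of the 10, at a median of 489 CPM over the 14 libraries, and its mean level lay at or above that of 98.9% of all genes. Bgn followed with a median of 205 CPM and Dcn with 175, at or above 95.9% and 95.4% of genes by their means. The ranges of these last 2 overlapped, from 60.0 to 398 CPM for Bgn and from 137 to 350 CPM for Dcn. Within a library their order went with the title letter. Bgn lay above Dcn in every F library and below it in every M library. Pdgfra had a median of 53.6 CPM, Fmod 41.7, Itga8 33.6, Lum 19.9, Ogn 13.8, Fbln2 8.26 and Fbln1 4.67, and each of these overlapped the next in that order, while every level of Pdgfra lay below every level of Dcn. Sparc was also the steadiest, with an SD of 15.1% of its mean, against 23.7% for Fmod, 30.3% for Dcn and 47.6% for Bgn. Fbln1, with 1 to 11 counts a library, was too low to be tested.

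**Figure D1:**
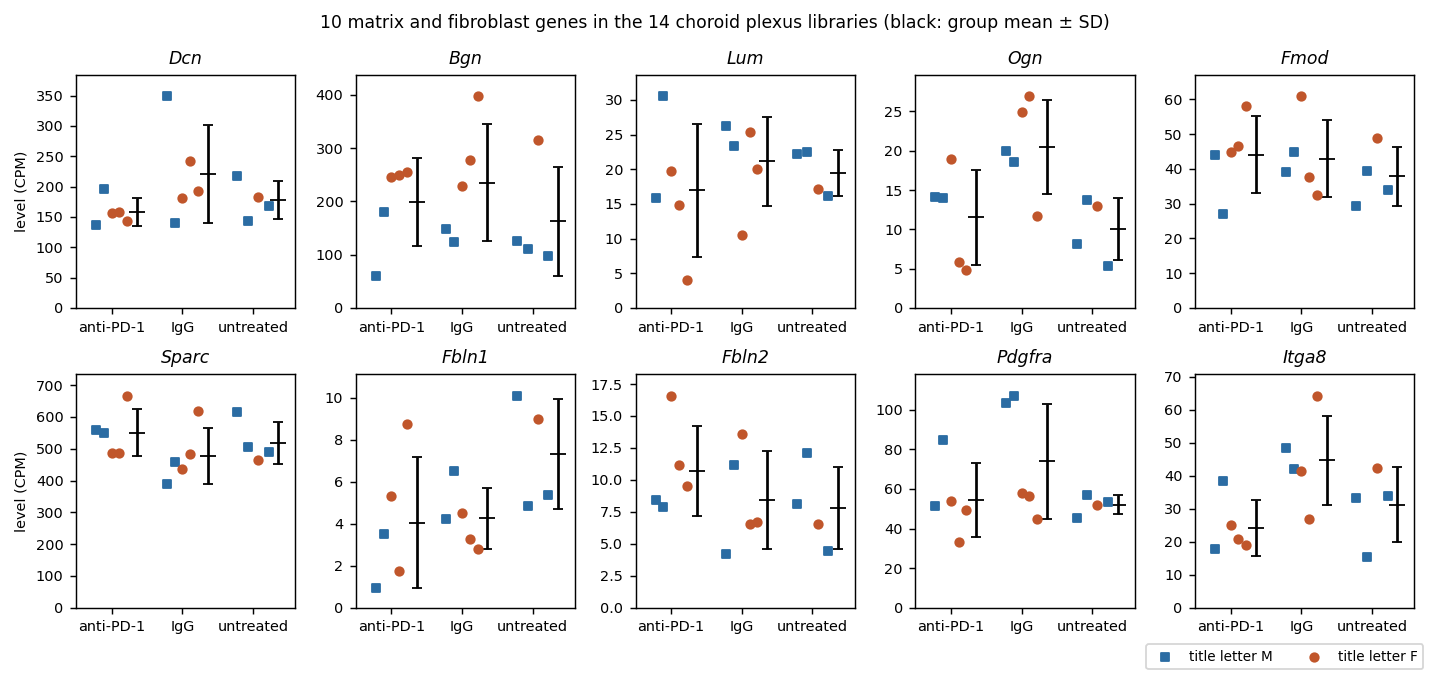
Level in CPM of each of the 10 genes in each choroid plexus library, by treatment group, with the title letter as colour and shape and the group mean ± SD in black. The groups overlap in every panel, while for Bgn the F libraries (230 to 398 CPM) all lie above the M libraries (60.0 to 181 CPM).

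The first comparison asked whether blocking PD-1 changed these genes relative to the control antibody. Itga8 was lower with anti-PD-1 by 0.90 ± 0.252 on the log2 scale (SE), Ogn by 0.84 ± 0.335, Dcn by 0.47 ± 0.169 and Pdgfra by 0.40 ± 0.177, but none of these differences passed adjustment over the 9513 tested genes. With edgeR's quasi-likelihood test, 0 of 9 tested members were called at an adjusted p under 0.05 (Benjamini-Hochberg), beside 0.0% of all genes. DESeq2 also called 0 of these members and 1 gene in all. At an unadjusted p under 0.05, 4 of the 9 passed, all of them lower, against 442 genes or 4.65% of those tested, of which 2.62% were lower. The median log2 difference of the 9 was -0.33, with 6 negative and 3 positive, where the median of all genes was 0.00. The groups overlapped for all 9, and for 0.641% of all genes they did not. The genes were chosen with results of these same libraries known, so this count is a description.

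Itga8 had the lowest p of the group. Its levels with anti-PD-1 were 17.8, 38.5, 25.0, 20.7 and 19.1 CPM, and with IgG 48.4, 42.0, 41.4, 27.0 and 64.3. In 4 of 5 anti-PD-1 libraries it lay below every IgG library, and replicate 2 overlapped the IgG range. The unadjusted p was 0.00133 and the adjusted p 1.0 in edgeR's quasi-likelihood test. Untreated libraries, at 33.4, 15.3, 42.4 and 33.9 CPM, overlapped both groups.

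Dcn rested on fewer libraries. It was at 137, 197, 156, 158 and 143 CPM with anti-PD-1 and at 349.6, 139.8, 181, 241 and 193 with IgG. IgG replicate 1 was the highest of all 14 libraries. Without it the difference fell to -0.24, from -0.47, with an unadjusted p of 0.125 in edgeR's fit. Untreated libraries held 217, 143, 183 and 169 CPM of Dcn, within the range of the IgG group.

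Ogn was low in every library, at 15, 16, 25, 10 and 6 counts with anti-PD-1, 19, 20, 33, 33 and 21 with IgG and 8, 17, 16 and 6 untreated. In CPM it ranged from 4.77 to 18.9 with anti-PD-1, from 11.7 to 27.0 with IgG and from 5.35 to 13.7 untreated. The IgG group had the highest mean, and it overlapped both of the others.

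Pdgfra was at 51.6, 84.8, 53.7, 33.0 and 49.3 CPM with anti-PD-1 and at 103, 107, 58.0, 56.5 and 44.7 with IgG. IgG replicates 1 and 2 and anti-PD-1 replicate 2, all with the letter M, were the highest of these, and the groups overlapped. In M libraries alone the log2 difference was -0.62 and in F libraries alone -0.23, and the difference between letters was 0.39 ± 0.331 (unadjusted p = 0.25, edgeR), so the letters were not shown to differ. The untreated libraries stayed between 45.5 and 57.1 CPM.

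The other 5 tested members differed by less. Lum, the lumican gene, had a log2 difference of -0.33 ± 0.296 and Bgn of -0.23 ± 0.179. Fmod was near 0 at 0.04 ± 0.187, and Sparc at 0.20 ± 0.119 and Fbln2 at 0.35 ± 0.345 had positive values. Sparc was at 559, 549.7, 488, 487 and 667 CPM with anti-PD-1 and at 389.7, 458, 437, 482 and 620.2 with IgG. An approximate 95% interval for Sparc ran from -0.03 to 0.44 and for Fmod from -0.33 to 0.41, so differences of those sizes are not shown to be absent.

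No marker of another cell type was called by edgeR for anti-PD-1 against IgG, and the summed levels of the marker lists are given here beside these genes. The 12 stromal fibroblast markers summed to 423 to 462 CPM with anti-PD-1, 467 to 684.5 with IgG and 406 to 509.5 untreated. The first 2 groups were narrowly apart in that sum, at 462.4 CPM in anti-PD-1 replicate 3 and 466.9 in IgG replicate 3. Untreated libraries overlapped both, and the other marker lists overlapped between anti-PD-1 and IgG. Of single genes, 0.641% did not overlap between anti-PD-1 and IgG. Gelsolin (Gsn), the largest part of the stromal sum, overlapped between them when taken alone, and it was also detected in sorted cells of high CD45. The 10 endothelial markers summed to 195 to 412, 268 to 459 and 269 to 414 CPM, and the 10 pericyte and smooth muscle markers to 108 to 204, 146.5 to 258 and 139 to 249.7 CPM. The 10 epithelial markers summed to 160926 to 189891, 151888 to 198163 and 184694 to 231014 CPM. The 11 macrophage and microglial markers summed to 63.7 to 325, 99.8 to 173 and 129 to 210.2 CPM and the 6 astrocyte markers to 54.2 to 93.7, 64.7 to 137 and 65.1 to 93.0 CPM. The 6 erythroid markers summed to 4.54 to 246 CPM with anti-PD-1, the highest being replicate 5, to 21.4 to 66.3 with IgG and to 49.7 to 74.8 untreated. At an unadjusted p under 0.05, 2 of 8 tested stromal and 2 of 10 endothelial markers were lower with anti-PD-1. So were 2 of 7 pericyte and 2 of 4 astrocyte markers, while 2 of 6 macrophage and 3 of 5 erythroid markers were higher. Of all genes 4.65% passed at that level, and 2.62% as lower. Estimates were negative for 8 of 8 stromal, 10 of 10 endothelial, 5 of 7 pericyte and 3 of 4 astrocyte markers. They were positive for 5 of 6 macrophage and 5 of 5 erythroid markers. The stromal genes Dpep1 and Gsn were at -0.68 ± 0.224 and -0.27 ± 0.121. Of the meningeal and arachnoid markers, 1 of 3 tested was lower at an unadjusted p under 0.05, Foxd1 at -0.72 ± 0.287. In the same list Foxc1 was at -0.55 ± 0.314 and Igfbp2 at 0.10 ± 0.093. The astrocyte connexin gene Gjb6 was at -1.15 ± 0.415, but Aqp4 of the same list was at 0.2 ± 0.37. The complement gene C1qc, made by macrophages, was at 0.78 ± 0.28. The part of these cells in the differences was not tested. In whole tissue, fewer cells of a type and less RNA per cell cannot be told apart.

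Against untreated tissue, which received no antibody, 0 of 9 members were called for anti-PD-1 by edgeR, beside 0.0% of all genes, and 0 by DESeq2. None had an unadjusted p under 0.05, a level that 368 genes (3.87%) reached. The log2 differences ran from -0.38 ± 0.288 for Itga8 to 0.36 ± 0.402 for Fbln2, with a median of 0.07 and 5 of 9 positive, beside 50.3% of genes. The groups overlapped for all 9, as they did not for 1.1% of genes. Dcn differed by -0.12 ± 0.189, Ogn by 0.16 ± 0.405 and Pdgfra by 0.24 ± 0.201. For IgG against untreated, edgeR and DESeq2 again called 0 of 9 members, beside 0.0% of genes, and 8 of the 9 estimates were positive, against 50.6% of genes, with a median of 0.29. The groups again overlapped for all 9, and for 1.59% of genes they did not. Pdgfra (0.64 ± 0.196, unadjusted p = 0.00305, adjusted p = 0.853) and Ogn (0.99 ± 0.386, unadjusted p = 0.0159, adjusted p = 0.99) were higher at an unadjusted p under 0.05, which 471 genes (4.95%, and 3.02% as higher) reached. The Pdgfra estimate was 1.00 in M libraries alone and 0.01 in F libraries alone, where 1 untreated library stands against 3 with IgG, and the difference between letters was not tested. The 3 comparisons share groups, so the low values against IgG and the high values of IgG against untreated rest in part on the same 5 libraries.

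**Figure D2:**
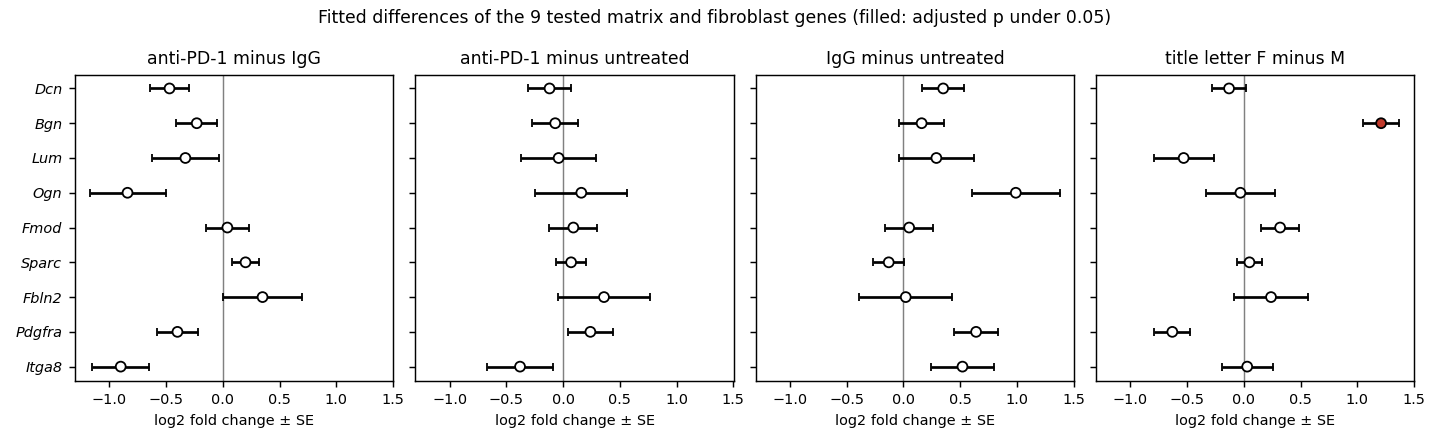
Log2 fold change ± SE of the 9 tested genes in 3 treatment comparisons and for the title letter, from 1 edgeR fit of the 14 libraries, with genes at an adjusted p under 0.05 filled. Bgn for F minus M, at 1.21, is the only filled point, and Itga8, Ogn, Dcn and Pdgfra lie below 0 for anti-PD-1 minus IgG and near 0 or on either side of it for anti-PD-1 minus untreated.

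The title letter gave the one clear difference in the tissue. Bgn, which lies on the X chromosome, was higher in F than in M libraries. With anti-PD-1 it was at 60.0 and 181 CPM in M and at 247, 249.6 and 256 in F, with IgG at 147 and 124 in M and at 229.7, 277 and 398 in F, and untreated at 126, 110.2 and 98.2 in M and 315 in F. Every F library thus lay above every M library, in each treatment group. The fitted difference was 1.21 ± 0.161 on the log2 scale, a level 2.31-fold higher in F, with an adjusted p of 0.000113 in edgeR's quasi-likelihood test. Bgn was 1 of 9 tested members called, beside 24 of all genes (0.252%, and 0.158% as higher). The letters did not overlap for 22 genes (0.231%), with F higher in 0.0946% of genes.

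The letter was tied to the number in the titles, since 6 of 7 M libraries carried the number 14 and no F library did. The exception was untreated replicate 4, an M library with the number 6, and with 98.2 CPM of Bgn it lay below every F library. Among the 5 libraries numbered 6 to 8 the Bgn difference was 1.67, but its M side is that 1 library. In untreated libraries alone it was 1.51, with an F side of 1 library, replicate 3, which stood apart from the rest of its group. In the anti-PD-1 and IgG libraries alone, with 4 M and 6 F, it was 1.11 (adjusted p = 0.00438, edgeR). In that subset every M library and no F library carried the number 14, so it cannot tell the letter from the number. With the number added to the fit as a covariate beside the letter, the estimate was 1.19 and the adjusted p 0.0635.

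**Figure D3:**
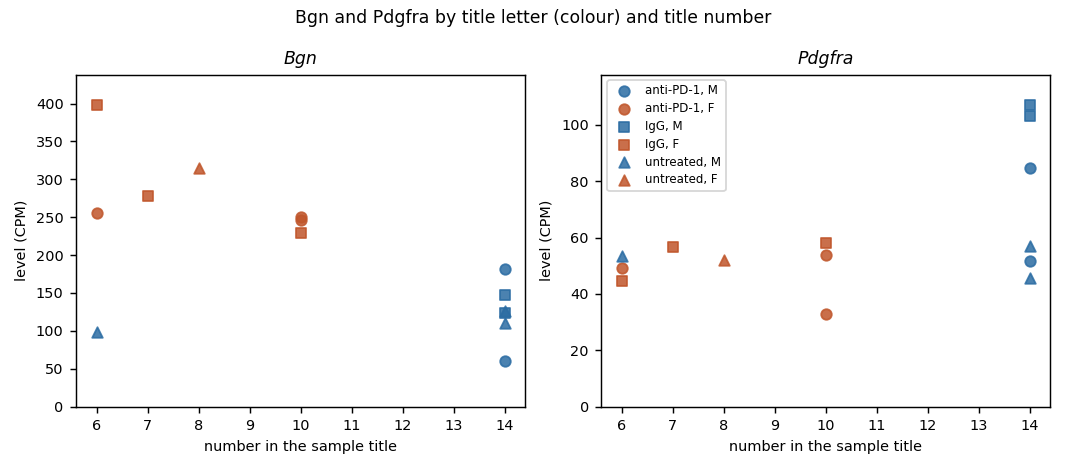
Levels of Bgn and Pdgfra in CPM against the number in the sample title, with the title letter as colour and the treatment group as shape. The M library numbered 6 lies with the other M libraries for Bgn, at 98.2 CPM, and with the F libraries for Pdgfra, at 53.5 CPM. Among M libraries numbered 14, anti-PD-1 replicate 1 (51.6 CPM) and untreated replicates 1 and 2 (45.5 and 57.1 CPM) also lie within the F range of Pdgfra.

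Pdgfra had the next lowest p for the letter, in the other direction. It was lower in F by 0.63 ± 0.157 and missed the threshold (adjusted p = 0.0782, edgeR), with 33.0 to 58.0 CPM in F and 45.5 to 107 CPM in M. The 3 M libraries above 58.0 CPM were anti-PD-1 replicate 2 and IgG replicates 1 and 2, all numbered 14. In untreated libraries alone, with 1 F library at 52.1 CPM, the difference was 0.01. It passed without untreated replicate 3, at -0.81 with an adjusted p of 0.018. Markers of oligodendrocyte precursors, which also use this receptor, summed to 3.5 to 16.1 CPM in M and 4.77 to 17.1 in F. The part of these cells in the Pdgfra level was not tested. Lum (-0.53 ± 0.264) and Fmod (0.32 ± 0.169) did not pass, with unadjusted p of 0.0538 and 0.0666, and Dcn, Sparc, Ogn and Itga8 had estimates between -0.13 and 0.05.

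Macrophage and microglial markers summed to 63.7 to 173 CPM in M and 118 to 325 CPM in F, and stromal fibroblast markers to 406 to 684.5 and 423 to 592 CPM. Their part in the Bgn difference was not tested. The size of the anti-PD-1 difference from IgG did not pass as different between letters for any member, with edgeR and DESeq2 calling 0 of 9, beside 0.0% of all genes. At an unadjusted p under 0.05 the count was 0 of the members and 313 genes (3.29%). The estimates of that difference, F minus M, lay between -0.63 for Ogn and 0.44 for Fmod.

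Other genes of the same matrix were read from 11 lists of 147 symbols, of which 90 were tested in the choroid plexus. For anti-PD-1 against IgG 0 were called, 7 were lower and 3 higher at an unadjusted p under 0.05, and 53 of the 90 estimates were negative. Of all genes 4.65% passed at that level, and 2.62% as lower. All 5 tested small leucine-rich proteoglycans other than the members had negative estimates, with Tsku at -0.63 ± 0.305, and so had 6 of 7 collagens, with Col1a1 at -0.55 ± 0.273. The Itga8 ligands fibronectin (Fn1, -0.93 ± 0.388) and vitronectin (Vtn, -0.77 ± 0.328) and the TGF-beta target Ctgf (-0.78 ± 0.269) were in the same direction. The ligand nephronectin (Npnt) had a positive estimate, 0.24 ± 0.162. Estimates of the enzymes that build glycosaminoglycan chains were mostly positive, 11 of 16, with Ext1, which makes heparan sulfate, at 0.56 ± 0.249. None of these passed adjustment, and without IgG replicate 1 Fn1 was at -0.28.

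For the letter, 1 of the 90 was called, beside 0.252% of all genes. Col1a2, the alpha 2 chain of type I collagen, was higher in F by 0.67 ± 0.143 (adjusted p = 0.0342, edgeR), at 47.7 to 83.5 CPM against 30.6 to 49.5 CPM in M. That call was lost in 13 of 24 alternatives, among them 8 of the 14 that left out 1 library (adjusted p up to 0.148) and the fit with the title number added (adjusted p = 0.268). Over all 24 the adjusted p ran from 0.00224 to 1.0. Fbln5, an elastic fibre fibulin, was at 109 to 255 CPM in F and 66.3 to 140.0 in M (0.86 ± 0.198, adjusted p = 0.0585). Col1a1, whose product joins that of Col1a2 in the same fibre, was at 17.4 to 82.1 CPM in F and 21.6 to 59.0 in M.

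Pairs of members were weakly related from library to library. Over the 45 pairs of members, Pearson's r of log2 CPM across the 14 libraries had a median of 0.08, with 27 positive, from -0.72 for Lum with Fmod to 0.54 for Dcn with Itga8. Taking Dcn as the reference, 0 of its 9 pairs passed adjustment over the 9 (permutation test, two-sided). The lowest p was that with Fbln2, at r = -0.62 and rho = -0.60, with permutation p of 0.0145 and 0.0248 and adjusted p of 0.131 and 0.128. Without the 2 libraries farthest from the Dcn median, IgG replicates 1 and 4, that r was -0.38. Dcn with Itga8 gave r = 0.54 and rho = 0.55 (permutation p = 0.0414 and 0.0436, adjusted 0.186 and 0.128), 0.66 without those libraries and 0.33 within treatment groups. Ranked by likeness to the mean of the standardised members over 14 libraries, the nearest genes outside the list were Urb2 (r = 0.86), Hmgxb4, Ifrd2, Serping1, Glipr2, Alpl, Epb4.1, Tmed1, Mocs1 and Lpl (0.78), given as a description.

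The sorted cells gave a sharp contrast, in that 9 of the 10 genes were at or near 0. Over the 11 libraries Dcn, Ogn and Fbln1 had 0 counts, Lum and Fbln2 1 each, Fmod and Pdgfra 2 each, Itga8 12 and Bgn 18. Of the 12 counts of Itga8, 9 were in the 2 CD45high D14 libraries, at 9.19 and 8.32 CPM, and the other libraries had at most 2. Bgn was at most 3.7 CPM in CD45low and at most 16.6 CPM in CD45high libraries. Type I and III collagen genes were equally scarce there, with Col3a1 at 0 counts, Col1a1 at 1 and Col1a2 at 3 in all. Tissue and sorted cells come from separate tables and were not tested against each other.

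**Figure D4:**
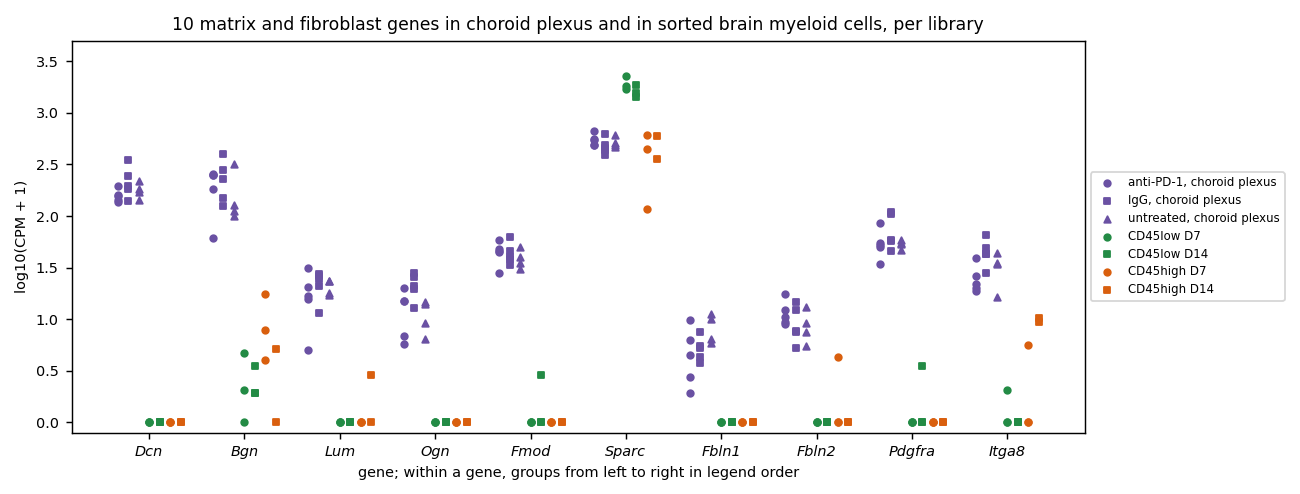
Level of each gene in each library as log10(CPM + 1), with choroid plexus groups in purple, the CD45low gate in green and the CD45high gate in orange. Sparc is the only one of the 10 genes above 100 CPM in sorted cells, and Dcn, Ogn and Fbln1 lie at 0 in all 11 sorted libraries.

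Sparc was the exception, and it is known as an abundant transcript of microglia. It was at 1812, 1705 and 2261 CPM in CD45low D7, at 1876, 1417 and 1572 in CD45low D14, at 610.1, 449 and 117 in CD45high D7 and at 599 and 358 in CD45high D14. Every CD45low library lay above every CD45high library. The difference between the gates was -2.04 ± 0.275 on the log2 scale, a level 4.1-fold lower in CD45high cells, with an adjusted p of 3.45e-06 in edgeR's quasi-likelihood test. Of the 9058 genes tested 53.2% were called, 26.4% lower, and 34.5% did not overlap, so a gate difference of this kind was common. In the authors' scaled table Sparc had 15678 reads over the 11 libraries against 10224 in the count table, and the difference on those reads was -2.21.

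The microglial receptor gene P2ry12 moved with Sparc. It was 2.29 ± 0.319 lower in the CD45high gate on the log2 scale (adjusted p = 5.13e-06, edgeR), at 1617 to 2412 CPM in CD45low libraries. In CD45high D7 it was at 703, 449 and 82.4 CPM and in CD45high D14 at 544 and 374, so both genes were lowest in CD45high D7 replicate 3. The ratio of Sparc to P2ry12 counts was 0.766 to 0.972 in CD45low and 0.868 to 1.42 in CD45high libraries. The neutrophil transcript Ngp was at 3463 to 7185 CPM in the CD45high gate and 197 to 2748 in the CD45low gate. Endothelial markers summed to 272 to 594 CPM in CD45low and 75.5 to 169 in CD45high libraries. Of that list only Eng (-2.18 ± 0.216) and Pecam1 (-1.85 ± 0.363) had enough counts to be tested between the gates. In each sorted group, 3 to 5 of the 10 genes were at 0 in every library, so the sum rests on few genes. How much of the CD45high signal came from cells of another kind was not tested.

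**Figure D5:**
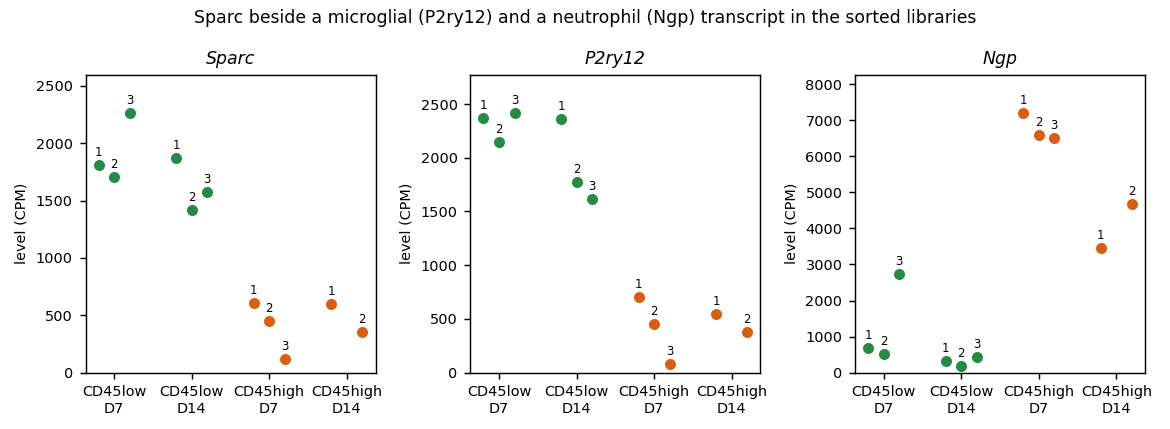
Levels in CPM of Sparc, of the microglial transcript P2ry12 and of the neutrophil transcript Ngp in each sorted library, with replicate numbers beside the points. Sparc and P2ry12 are both at 1417 CPM or more in each CD45low library and at 703 CPM or less in each CD45high library, and Ngp is higher in the CD45high gate.

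Between D14 and D7 Sparc did not pass. The log2 difference was -0.25 in CD45low cells (adjusted p = 0.946, edgeR), where 0.0994% of genes were called, and 0.31 in CD45high cells (adjusted p = 0.819), where 0.011% were called and without D7 replicate 3 it became -0.15. Among 51 tested matrix genes of the lists, 15 were higher and 21 lower in the CD45high gate, where 53.2% of all genes were called and 26.4% were lower. Fibronectin was higher by 6.39 ± 0.229, at 798 to 1174 CPM against 6.02 to 25.7, serglycin (Srgn), the proteoglycan of leukocyte granules, by 1.95 ± 0.162 and the TGF-beta-induced matrix gene Tgfbi by 2.43 ± 0.145. The ligand genes Pdgfa and Pdgfb were lower by 1.80 ± 0.272 and 1.85 ± 0.297, and the collagens Col6a3 and Col15a1 had 241 and 310 counts in the CD45low libraries against 1 and 19 in the CD45high libraries. Of the stromal fibroblast markers, Gsn (187 to 342 CPM) and Thy1 (80.1 to 212 CPM) made up most of the sum in the CD45high gate, while Col3a1, Pcolce, Dpep1 and Mfap4 were at 0 counts in all 11 libraries.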

How the data were processed

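RNA of whole choroid plexus and of sorted brain myeloid cells from saline-perfused 5XFAD mice was made into 3′-end libraries, per the labels' protocols. The submitters' processing notes name Bowtie2, HOMER and the build mm9, with versions not given in the sources used here. The authors deposited whole-number counts per gene, not normalized, and a scaled signal per gene that held whole reads (within 0.05 reads) for 100.0% of values. In the sorted cells the scaled tables held 1.26 to 1.45 times the counts.

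Counts were tested with edgeR 4.0.16 (quasi-likelihood, TMM, default expression filter, R 4.3.3), adjusted by Benjamini-Hochberg over all tested genes. The choroid plexus fit held treatment group and title letter (10 residual degrees of freedom), the sorted fit 4 group means (7). The standard error is the log2 fold change over the root of F. DESeq2 1.42.0 was an alternative, and the code was tested on simulated data. Levels are CPM over the summed counts of tested genes with TMM factors, while the limits for a count of 0 use the whole total. Correlations used log2 CPM with a prior count of 2 and 100000 permutations. All 10 members are named. Of other lists, called genes (at most 4) or those of lowest p (at most 2) are named. The levels or estimates of a few more were added after their values were seen. Members and lists were chosen with earlier results of these data known. Each choroid plexus library is a mouse, per the series' design.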

Additional observations from a re-analysis of the deposited data

Results flagged for a closer look

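In the 30 sets of values formed by 10 genes and 3 choroid plexus groups, 1 library stood apart from the rest of its group. For Bgn, untreated replicate 3 was at 315 CPM and the next library of the 4 at 126, a gap of 0.87 of the whole range where the limit for 4 samples is 0.829. Chance marks about 1 in 20 such groups. This library is the only one with the letter F in that group, and F libraries of the other groups held 230 to 398 CPM.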

How the results depend on the processing

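The count of called members stayed at 0 for anti-PD-1 against untreated, IgG against untreated, the difference between letters and D14 against D7 in both gates under all alternatives run. Without the filter on low counts it was 1 for anti-PD-1 against IgG (Itga8, -0.90, adjusted p = 0.00536), 2 for the letter (Bgn and Pdgfra) and 2 for the gates (Sparc and Itga8). For the letter it was 0 with the title number added, 2 in the anti-PD-1 and IgG libraries alone, and 1 to 2 leaving out 1 library. Restricting the letter to subsets of libraries was chosen after seeing the data. Of the pairs with Dcn, 0 to 1 passed leaving out 1 library, the 1 being without untreated replicate 4. The cause was not tested. Fmod for anti-PD-1 against IgG turned to -0.24 in M libraries and ran from -0.10 to 0.18 leaving out 1 library (-0.02 and -0.04 without anti-PD-1 replicates 1 and 5, -0.04 and -0.10 without IgG replicates 4 and 5). Lum for the letter turned to 0.06 among title numbers 6 to 8 and Pdgfra to 0.01 in untreated libraries, each resting on 1 library on one side. Sparc, D14 against D7 in CD45high, ran from -0.15 to 0.79 (-0.11 without D14 replicate 1). Adamts1 was called under 4 of 24 alternatives. Of all genes, the letter called 24, and 166 without the filter, 10 with the title number added, 39 in the anti-PD-1 and IgG libraries alone and 9 to 55 leaving out 1 library. Without the filter 31 genes were called for anti-PD-1 against IgG, 13 for anti-PD-1 and 27 for IgG against untreated, each 0 with it. D14 against D7 called 9 genes in CD45low (3 to 128 under other settings) and 1 in CD45high (0 to 114), with 0 to 34 and 0 to 13 leaving out 1 library. On the reads recovered from the scaled tables, each treatment comparison called 0 genes, and the calls were 30 for the letter and 5784 for the gates. At 1 to 36 counts a library, Lum, Ogn, Fbln1 and Fbln2 are limited by depth.

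Choroid plexus libraries with the same replicate number did not all deviate together, with correlations from -0.03 to 0.16 between anti-PD-1 and IgG. The numbers are thus not shown to pair these libraries. With a replicate block beside the letter the called members were 0 and the called genes 1, with Bgn at 1.53 (adjusted p = 0.828) and Lum at 0.26. With the block in place of the letter they stayed at 0 for the 3 treatment comparisons. In the sorted cells, libraries of the 2 gates share a number in their titles. Correlations between gates were 0.01 to 0.06 in D7 and 0.04 to 0.06 in D14 for the same number. For other numbers they were -0.05 to 0.01 and -0.06 to 0.02. The main gate fit did not use this number, and with a block for it Sparc was at -2.16.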

Other observations

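Among the matrix proteases and inhibitors, Adamts1, a secreted protease that cleaves large proteoglycans, had the lowest p of the listed genes for anti-PD-1 against untreated. It was at 102 to 155 CPM with anti-PD-1, 122 to 168 with IgG and 183 to 268 untreated, so no anti-PD-1 or IgG library reached the untreated range. Of all genes, 1.1% did not overlap between anti-PD-1 and untreated libraries and 1.59% between IgG and untreated libraries. The log2 difference was -0.77 ± 0.144 for anti-PD-1 (adjusted p = 0.123, edgeR) and -0.57 ± 0.146 for IgG (adjusted p = 0.502) against the same 4 untreated libraries. DESeq2 called the first, at an adjusted p of 0.00598. In the sorted cells Adamts1 was at 498 to 824 CPM in the CD45low and 4.58 to 139 CPM in the CD45high gate.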
